A study of Microcebus murinus with 18 samples.

Results

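The RNA exosome subunits were followed in the temporal cortex of the grey mouse lemur, Microcebus murinus, on human HG-U133 Plus 2.0 arrays. The 10 genes were EXOSC1, EXOSC2, EXOSC3, EXOSC4, EXOSC5, EXOSC7, EXOSC8, EXOSC9, EXOSC10 and DIS3, and every probe set annotated to 1 of these symbols alone was taken. This gave 27 probe sets of the 54613 on the array that are not controls, 12 for cap subunits, 8 for ring subunits and 7 for catalytic subunits. Another probe set is annotated to both EXOSC7 and CLEC3B and was not attributed. A probe set was kept for testing if its third-highest signal was at least 148, which left 10 member probe sets from 7 genes. EXOSC9 and EXOSC5 were singled out with results of these animals already known, EXOSC9 by its difference between old and young adult animals and EXOSC5 by its difference between AD-like and old animals. Their values are therefore given as a description and without a test of the group differences, and the other 8 kept probe sets were tested.

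The exosome is the main machine that degrades RNA from its 3′ end, in both the nucleus and the cytoplasm. In human cells, a barrel-shaped ring of RNase PH-like proteins (EXOSC4 to EXOSC9) is closed on top by S1-domain cap proteins (EXOSC1, EXOSC2 and EXOSC3), and RNA is threaded through this channel to DIS3, an exonuclease that also has an endonuclease site, or reaches EXOSC10, a nuclear exonuclease of the RNase D family. The human ring itself has lost its catalytic activity, and its proteins sit in pairs, EXOSC9 with EXOSC4, EXOSC5 with EXOSC8 and EXOSC7 with EXOSC6. The complex trims ribosomal and small nucleolar RNA, removes failed transcripts and completes mRNA decay, and inherited defects of EXOSC3, EXOSC8 or EXOSC9 in people affect motor neurons and the cerebellum.

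The AD-like group held 2 old females with β-amyloid plaques and cortical atrophy and a mean age of about 10 years. The old group held 10 healthy animals of about 8 years, 7 females and 3 males. The young adult group held 6 animals of about 1 year, 4 females and 2 males. No treatment is named for any animal and 1 array was made per animal, so the spread is that between animals, and their number, above all the 2 AD-like animals, limits the precision. Signals are linear GCOS values scaled to a trimmed mean of 100 on each array. Since human probes met lemur RNA, groups were compared only between animals on the same probe set. Signals of different probe sets were set against each other only for the filter and to name brighter and dimmer probe sets. They are not read as amounts of RNA.

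Array medians ran between 44.3 and 53.0 in AD-like, 30.7 and 50.5 in old and 33.7 and 54.4 in young adult animals. Spiked poly-A control RNA was near background on 4 arrays (AD-like F2, old M1, old M2 and young adult M2; signal of the dap control 19.0 or less there and 334 or more on the remaining 14). Neuronal markers, 8 of 8 kept, defined the tissue, and their summed signal was 23577 to 50565 in AD-like, 34859 to 58363 in old and 15824 to 58214 in young adult animals. The sum ran between 15824 and 35431 in AD-like F2, the 3 old males, young adult F4 and both young adult males, and between 43541 and 58363 in the others. None of 6 microglial markers on the array passed the filter, and astrocyte markers, 4 of 6 kept, summed to 7678 to 8945 in AD-like, 5695 to 15284 in old and 4223 to 18616 in young adult animals. In this bulk tissue fewer cells of a type and less RNA per cell cannot be told apart.

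EXOSC9, the ring subunit that pairs with EXOSC4, had higher signals in old than in young adult cortex, in values that chose it. Its probe set (205061_s_at) read 230 and 117 in the AD-like animals. In the old animals the lowest signal was 125, the median 196 and the highest 248. In the young adults the signals were 158, 134, 150 and 100 in females F1 to F4 and 87.7 and 50.5 in males M1 and M2. Thus 9 of 10 old animals lay above every young adult, and only old F1, at 125, fell within the young adult range. Of all kept probe sets 0.101% had at least 9 of 10 old animals above every young adult, and nothing is read from that for EXOSC9, which was selected on this contrast. The mean was 200 ± 39.0 in old and 113 ± 41.3 in young adult animals (SD, n = 10 and 6). The log2 difference was 0.79 (SE 0.24) on the scale of log2(signal + 16). This SE takes no account of the choice of EXOSC9 on this contrast.

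Of the 2 AD-like animals, F1 read within the old range and F2 lay below all of them on EXOSC9. The log2 difference was −0.24 (SE 0.35) between AD-like and old animals and 0.56 (SE 0.37) between AD-like and young adult animals, with 95% intervals of −0.97 to 0.50 and −0.22 to 1.33. Without AD-like F2, an array without poly-A control RNA, the difference from old animals was 0.21, and without AD-like F1 it was −0.68. The sign of the AD-like minus old value for EXOSC9 thus turned with the animal left out.

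The EXOSC9 contrast between old and young adult animals was wider among males than among females. The old males read 195, 194 and 243, against 87.7 and 50.5 in the young adult males, a log2 difference of 1.44. Among females, with 125 to 248 in old and 100 to 158 in young adult animals, it was 0.47. The difference between the sexes in this contrast, male minus female, was 0.97 (SE 0.42), given without a test. Both young adult males stood among the arrays with a low neuronal sum (15824 and 27902) and M2 lacked poly-A control RNA. On the 14 arrays with poly-A control RNA the old minus young adult difference of EXOSC9 was 0.62, and leaving out any 1 animal gave 0.61 to 0.89.

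EXOSC5, the ring subunit that pairs with EXOSC8, was dimmer in the AD-like animals than in every other animal, again in values that chose it. Its probe set (218481_at) read 65.7 and 25.8 in AD-like F1 and F2. In the old animals the lowest signal was 101, the median 239 and the highest 359. In the young adults it was 121, 233, 136 and 265 in females F1 to F4 and 198 and 117 in males M1 and M2. Neither AD-like signal overlapped the old or the young adult signals. The share of all kept probe sets with both AD-like animals below every old one was 1.62%, and nothing is read from that for EXOSC5, which was selected on this contrast. Both AD-like animals lay above every old one in 1.43% of probe sets and in 0 of 10 member probe sets. They lay below every young adult in 2.95% of probe sets.

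The mean EXOSC5 signal was 45.7 ± 28.2 in AD-like and 237 in old animals, a log2 difference of −2.02 (SE 0.43). Against young adults, with a mean of 178, the difference was −1.67 (SE 0.45). These SE take no account of the choice of EXOSC5 by its AD-like signals. Old minus young adult was 0.35 (SE 0.28, 95% interval −0.24 to 0.94). The size of the AD-like difference rested partly on the offset for a low signal, −2.39 when 1 was added to the signal and −1.55 when 50 was added. It was −2.50 without AD-like F1 and −1.54 without AD-like F2. F1 is an array with poly-A control RNA and a neuronal sum of 50565, within the old female range, and the 8 old animals with that control read 101 to 359 on EXOSC5. F2 lacked the control and had a low neuronal sum (23577), and the 2 old animals without the control read 135 and 151. With 1 AD-like animal in each set of arrays, the part of the array set and of neuronal content in the EXOSC5 difference was not tested.

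**Figure D1:**
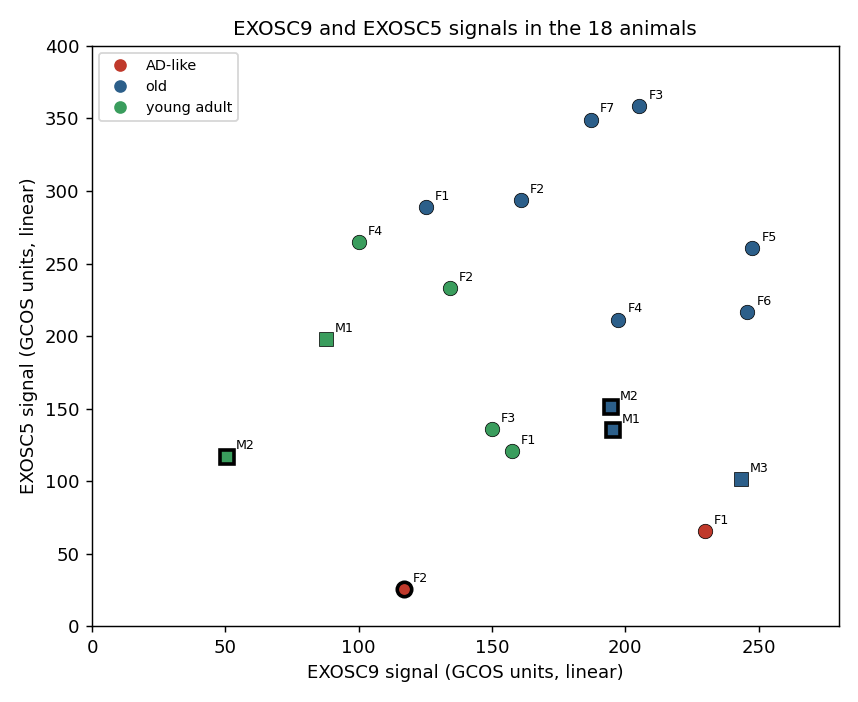
EXOSC5 signal (vertical axis) against EXOSC9 signal (horizontal axis), both in linear GCOS units, for each of the 18 animals, coloured by group, with circles for females, squares for males, a thick outline where poly-A control RNA was near background (4 arrays) and labels giving sex and number. The AD-like animals sit lowest on EXOSC5, at 65.7 and 25.8, and the young adults lie at 158 or below on EXOSC9.

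EXOSC5 signals were lower in old males than in old females. The old males read 135, 151 and 101, and the 7 old females read 211 to 359, with no overlap. Of all kept probe sets 5.4% had the 3 old males below every old female and 3.34% had them above, so such a gap was not rare on these arrays. In young adults the males read 198 and 117 and the females 121 to 265, which overlap. With group in the limma fit, the log2 difference of EXOSC5 was −0.71 for male minus female animals (SE 0.25), given without a test. Of all kept probe sets 10.2% had an adjusted p under 0.05 for sex and 28.9% an unadjusted one, and 0 of the 8 tested members were among either. All 5 male arrays had a low neuronal sum and 3 of the 5 lacked poly-A control RNA, and their part in the difference was not tested. This contrast was added after the data were seen.

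**Figure D2:**
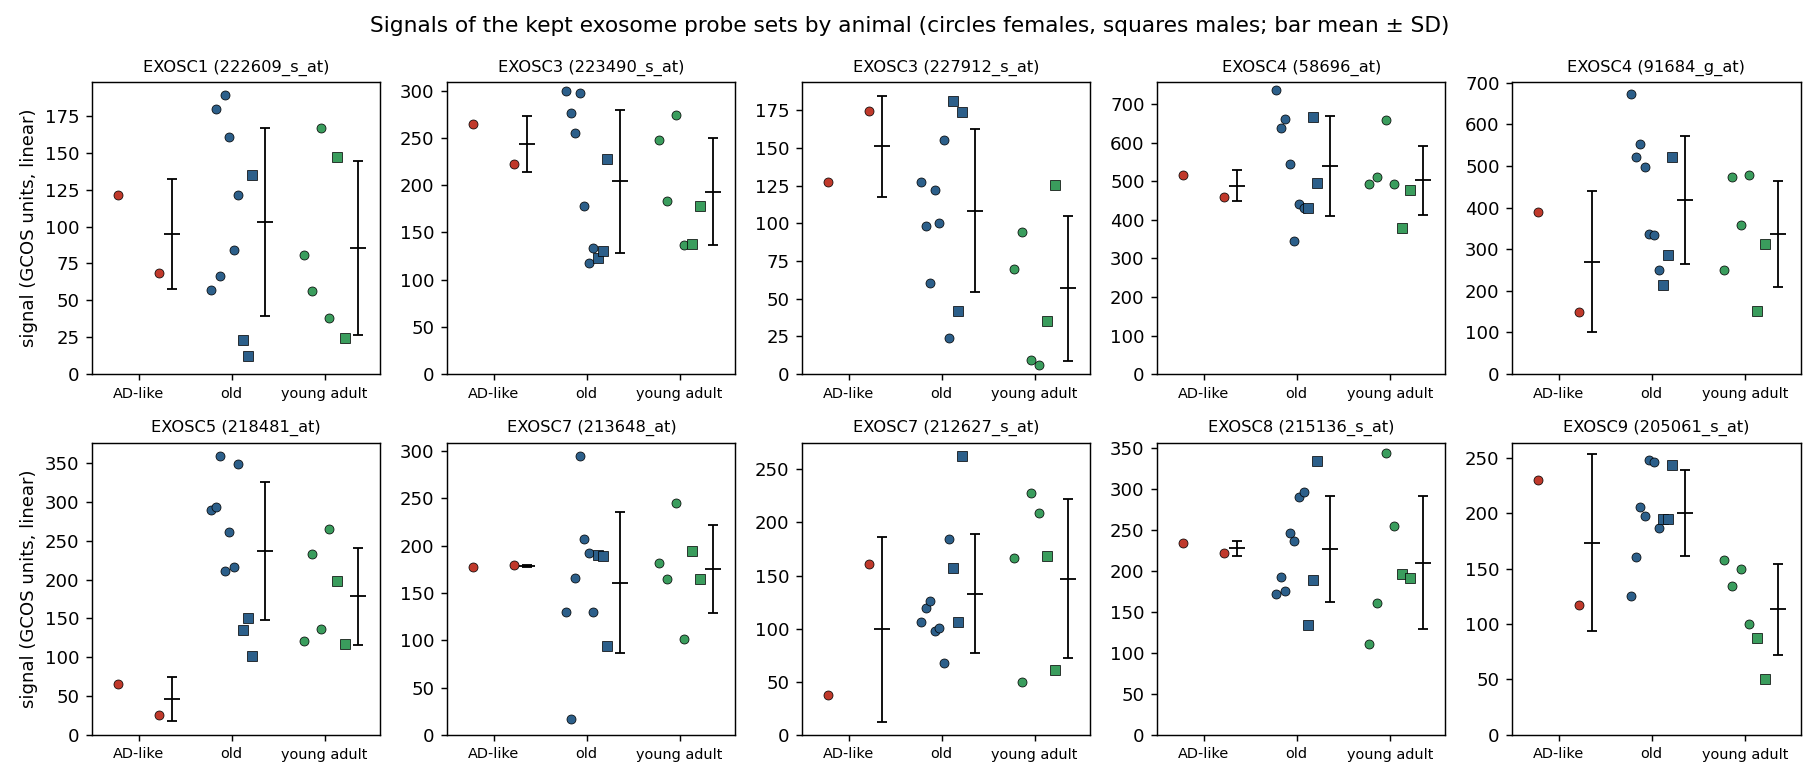
Linear GCOS signal of each of the 10 kept member probe sets, 1 panel per probe set, in AD-like, old and young adult animals, with circles for females, squares for males and the bar showing the mean and SD. EXOSC5 shows 2 AD-like animals below all others, EXOSC9 shows 9 of 10 old animals above every young adult, and the groups overlap widely on EXOSC4, EXOSC7 and EXOSC8.

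On the partners of these ring subunits the groups overlapped. EXOSC4 is the ring partner of EXOSC9, and its probe set 58696_at read 516 and 460 in AD-like animals, 346 to 737 (median 520) in old animals and 379 to 659 (median 493) in young adults. Its log2 difference was −0.10 (95% interval −0.74 to 0.53) for AD-like minus old and 0.08 (95% interval −0.35 to 0.51) for old minus young adult animals. The second EXOSC4 probe set, 91684_g_at, read 391 and 150 in AD-like, 214 to 672 in old and 151 to 478 in young adult animals. Its differences were −0.66 (SE 0.45, adjusted p = 0.971, limma) and 0.31 (SE 0.30, adjusted p = 0.906), and without AD-like F2 the first was −0.01. The remaining EXOSC4 probe set, 218695_at, was not kept. It had a median of 43.4 over the 18 arrays and differences of −0.16 (SE 0.53) and 0.21 (SE 0.35), given without a test.

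EXOSC8, the ring partner of EXOSC5, read 235 and 222 in AD-like animals on its only probe set (215136_s_at). In old animals it ranged between 134 and 334, around a mean of 227, and in young adults between 111 and 345, around a mean of 210. Both AD-like animals lay well inside each range, and the log2 difference was 0.05 (95% interval −0.70 to 0.81) for AD-like minus old, 0.13 (95% interval −0.37 to 0.64) for old minus young adult and 0.19 (95% interval −0.61 to 0.98) for AD-like minus young adult animals. With each array centred on its median the first of these was −0.11, so its sign turned with the scaling.

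EXOSC7, the ring subunit that pairs with EXOSC6, had 2 kept probe sets that went different ways. On 213648_at the AD-like animals read 178 and 179, against 17.1 to 295 in old and 101 to 245 in young adult animals. On 212627_s_at they read 37.8 and 161, against 67.6 to 262 in old and 49.8 to 228 in young adult animals. AD-like minus old was 0.32 (SE 0.53) on the first and −0.53 (SE 0.51) on the second, which became 0.33 when AD-like F1 was left out. Old minus young adult was −0.25 (SE 0.35) and −0.04 (SE 0.34), and no adjusted p of EXOSC7 was below 0.932 in limma.

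Among the cap subunits, which guide RNA into the channel, EXOSC3 gave the only tested differences with an unadjusted p under 0.05. They came from a probe set that the filter kept only through AD-like and old animals. Its probe set 227912_s_at read 127 and 175 in the AD-like animals. The old animals had a lowest signal of 23.7, a median of 111 and a highest signal of 181. The young adults read 70.0, 94.6, 9.63 and 5.97 in females F1 to F4 and 35.4 and 125 in males M1 and M2. Both AD-like animals thus lay above every young adult, F1 by a small margin over M2, and the old range covered most of the young adult range. Both AD-like animals lay above every young adult in 2.65% of all kept probe sets, and EXOSC3 227912_s_at was the only one of the 8 tested members among them.

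For that EXOSC3 probe set the log2 difference was 0.94 (SE 0.42, 95% interval 0.07 to 1.80; limma p = 0.0351, adjusted p = 0.837) for old minus young adult and 1.51 (SE 0.66; p = 0.0326, adjusted p = 1.00) for AD-like minus young adult animals. Neither passed the adjusted threshold, and the probe set entered the test only through its AD-like and old signals. The value for AD-like minus old was 0.57 (SE 0.62, adjusted p = 0.971). With young adult F3 and F4 at 9.63 and 5.97, the size depended on the offset, the old minus young adult value being 1.36 when 1 was added to the signal and 0.61 when 50 was added. It was 0.66 without young adult F4.

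The other kept probe set of EXOSC3 did not share this pattern. On 223490_s_at the AD-like animals read 264 and 222, the old animals 118 to 300 with a median of 203 and the young adults 137 to 275 with a median of 181. The log2 difference was 0.31 (SE 0.38) for AD-like minus old, 0.04 (95% interval −0.49 to 0.57) for old minus young adult and 0.35 (SE 0.40) for AD-like minus young adult animals. EXOSC3 also had 4 dimmer probe sets that were not kept, with medians of 20.7 to 85.5 over the 18 arrays. They went different ways and were not tested. In the order 227916_x_at, 223489_x_at, 227913_at and 233495_at, AD-like minus old was 0.97, −0.18, −0.14 and −1.08. Old minus young adult was 0.04, 0.25, 0.36 and 0.32, and AD-like minus young adult was 1.01, 0.07, 0.23 and −0.76.

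EXOSC1, the cap subunit named CSL4 in yeast, was uneven within each group on its kept probe set (222609_s_at). It read 121 and 68.7 in AD-like animals, 12.1 to 189 in old animals and 24.4 to 167 in young adults, with old M2, old M1 (23.4) and young adult M2 lowest of all. These are males on arrays without poly-A control RNA, and AD-like F2, also without it, was the lower AD-like animal. Old M3 (135) and young adult M1 (147), males with that control, read higher. The part of sex and array set was not tested. On this probe set the log2 difference was 0.11 (SE 0.65), 0.19 (SE 0.43) and 0.30 (SE 0.68) for AD-like minus old, old minus young adult and AD-like minus young adult, each smaller than its error. Its third-highest signal of 167 was the lowest of any kept member probe set. Among member probe sets not kept, the highest third-highest signal was 145, on DIS3 214194_at. The EXOSC1 probe sets 218369_s_at and 1559044_at were not kept, with medians of 11.5 and 4.67 over the 18 arrays. Both were at −0.22 for old minus young adult animals, opposite in sign to the kept probe set, and were not tested.

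**Figure D3:**
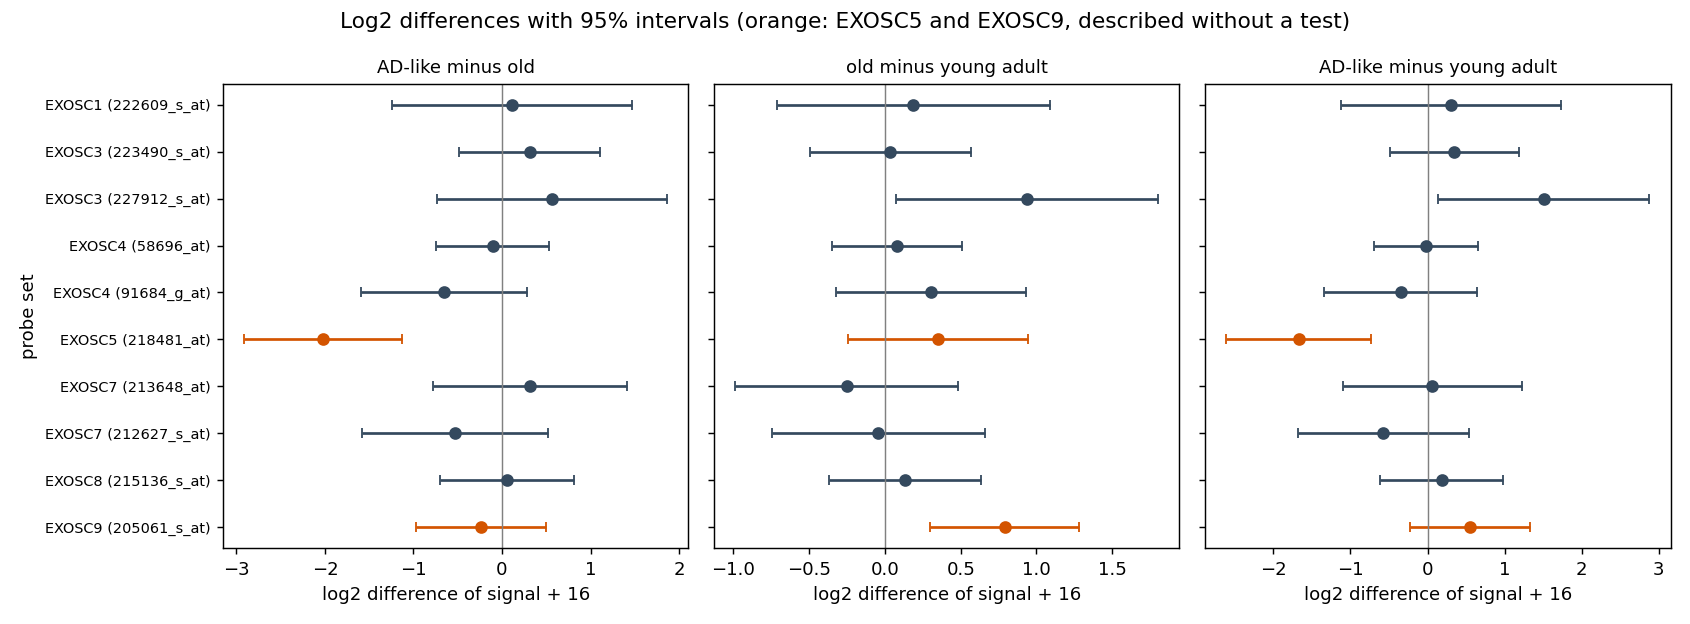
Log2 difference of signal + 16 for each kept member probe set (points) with its 95% interval (bars), for AD-like minus old, old minus young adult and AD-like minus young adult animals, on an axis of its own width in each panel. The intervals of all tested probe sets include 0 except those of EXOSC3 227912_s_at at 0.94 and 1.51, which the filter kept only through AD-like and old animals. EXOSC5 at −2.02 and EXOSC9 at 0.79, in orange, were selected on these contrasts. Their intervals take no account of that selection and are not read as tests.

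Over all 3 comparisons, 0 of the 8 tested member probe sets had an adjusted p under 0.05 by limma. For AD-like minus old animals, 0.00671% of all kept probe sets passed, which is 1 probe set. For old minus young adult and for AD-like minus young adult animals, 0% passed. At an unadjusted p under 0.05, the shares of all kept probe sets for AD-like minus old were 1.26% higher and 3.61% lower, with 0 tested members on either side. For old minus young adult they were 3.49% higher and 2.43% lower, with 1 tested member higher (EXOSC3) and 0 lower. For AD-like minus young adult they were 1.16% higher and 3.18% lower, with the same EXOSC3 probe set higher and 0 tested members lower. The 2 EXOSC3 values share the young adult animals, and their probe set passed the filter only through AD-like and old animals.

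With the brightest kept probe set of each of the 7 genes, the median log2 difference was 0.05 for AD-like minus old animals, with 4 genes higher and 3 lower, beside −0.02 over all kept probe sets, and its sign turned in 8 of 26 alternatives. For old minus young adult animals it was 0.13, with 6 higher and 1 lower, beside 0.03. For AD-like minus young adult animals it was 0.19, with 5 higher and 2 lower, beside 0.02. The gene on the lower side for old minus young adult animals was EXOSC7, at −0.25. Of all kept probe sets 48.3% were higher for AD-like minus old, 53.7% for old minus young adult and 51.4% for AD-like minus young adult animals. The 2 singled out genes are part of the member counts.

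The catalytic subunits EXOSC10 and DIS3 and the cap subunit EXOSC2 had no kept probe set, so their values are given without a test. DIS3, the main nuclease below the ring, had 5 probe sets with medians of 15.0 to 36.9 over the 18 arrays, and on each of them 10 to 17 arrays read below their own median. Its brightest animal differed between probe sets. On 214194_at the old animals read 14.9 to 184 (median 78.9, highest in F7), the AD-like animals 30.7 and 17.4 and the young adults 13.4 to 89.0, so the groups overlapped. The log2 difference there was −1.12 (SE 0.62) for AD-like minus old and 0.94 (SE 0.41) for old minus young adult animals. These were the lowest and the highest of the 17 member probe sets not kept. Old M1 was the brightest animal on 236560_at, at 140, and old M3 on 218362_s_at, at 73.2. On 236560_at old males read 94.2 to 140 and old females 51.1 or less. Young adult males read 57.7 and 78.6 there, and young adult females 26.0 or less. On 222607_s_at males also lay above the females of their group, narrowly in old animals. The remaining DIS3 probe sets lacked this order in old animals. Of all kept probe sets 3.34% had the 3 old males above every old female. That share was not counted over probe sets not kept, such as these, so nothing is read from the order. The part of sex, neuronal sum and array set was not tested.

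EXOSC10, the nuclear exonuclease, read 39.1 and 97.7 in AD-like animals, 8.31 to 117 in old animals and 25.6 to 135 in young adults on 207541_s_at, its brighter probe set. On 1559031_at 15 of 18 arrays read below their own median. EXOSC2, the cap subunit with S1 and KH domains, was below the array median on 14, 18 and 17 of 18 arrays on its 3 probe sets, and AD-like F1 gave its highest signal, 118 on 216117_at, beside 20.3 in AD-like F2. Over the 17 member probe sets not kept, the median log2 difference was 0.01 for AD-like minus old, 0.19 for old minus young adult and 0.07 for AD-like minus young adult animals, beside 0.11, −0.08 and 0.03 over all probe sets not kept.

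**Figure D4:**
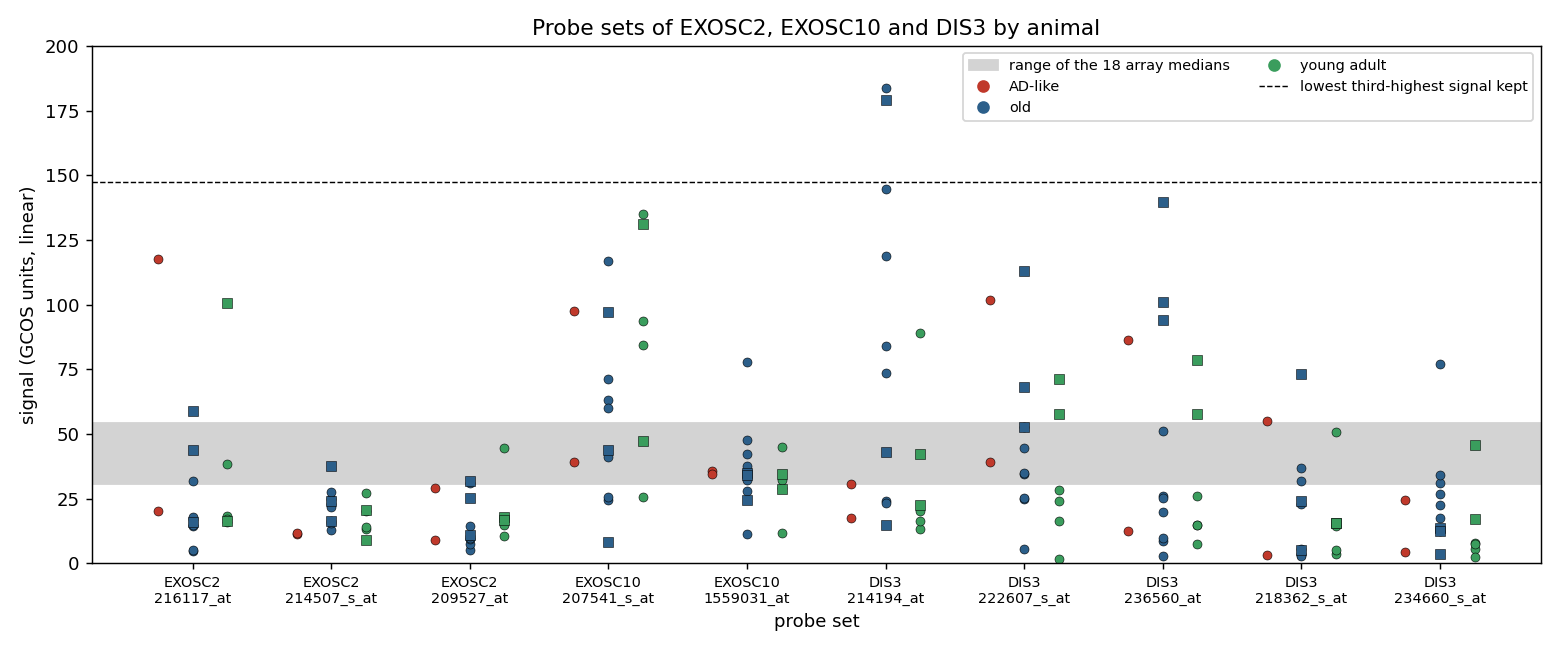
Linear GCOS signal of the probe sets of EXOSC2, EXOSC10 and DIS3 in each animal, with AD-like, old and young adult animals side by side at each probe set, circles for females and squares for males. The grey band spans the 18 array medians (30.7 to 54.4) and the dashed line marks the lowest third-highest signal kept (148), which only DIS3 214194_at exceeds, in 2 old animals.

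The probe sets of the 3 genes with a kept pair were set against each other over the 18 animals, 3 relations in all, with permutation tests and adjusted p over the 3. The 2 EXOSC4 probe sets went together (r = 0.60, permutation p = 0.00808, adjusted p = 0.0242; rho = 0.68, permutation p = 0.00256, adjusted p = 0.00768), and r was 0.60 without the 2 animals farthest from the median. The EXOSC3 pair gave r = 0.20 (permutation p = 0.433, adjusted p = 0.57; rho = 0.05, permutation p = 0.851, adjusted p = 0.851) and r = 0.48 without old F6 and old M1. The EXOSC7 pair gave r = −0.15 (permutation p = 0.57, adjusted p = 0.57; rho = −0.16, permutation p = 0.519, adjusted p = 0.778), and r was −0.11 without old F2 and old M3. As a description, the 42 pairs of different member genes had a median r of 0.01, between −0.43 and 0.57, and all pairs of kept probe sets had a median r of 0.003.

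The probe sets whose pattern over the 18 animals was most like that of EXOSC9, among 12716 with 1 gene symbol, were GRPEL1, a mitochondrial import co-chaperone (r = 0.88), C15orf61 (r = 0.86) and GGNBP2 (r = 0.83). GRPEL1 averaged 136 ± 68.8 in AD-like, 163 ± 45.5 in old and 78.9 ± 59.2 in young adult animals. For EXOSC5 they were CAMK2N1, an inhibitor of CaM kinase II (r = 0.88), MAST2, a protein kinase (r = 0.84), and PHC2, a Polycomb protein (r = 0.84). CAMK2N1 averaged 2975 ± 1693 in AD-like, 9205 ± 3128 in old and 7459 ± 1893 in young adult animals. These are the highest values of a search, given as a description.

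The wider RNA decay machinery was read from 5 lists, in which 46 of 69 genes on the array had a kept probe set, and 0 of the 46 passed an adjusted p of 0.05 in limma in any comparison. Of the cofactors and related nucleases of the exosome, 9 of 18 were kept. MTREX, the helicase that feeds RNA to the nuclear exosome, averaged 987 ± 214 in AD-like, 997 ± 436 in old and 890 ± 468 in young adult animals. SKIC2, the helicase that serves the cytoplasmic exosome, averaged 445 ± 109, 457 ± 109 and 469 ± 83.2 in the same groups.

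HBS1L, which frees stalled ribosomes and whose locus in people also yields an exosome bridging protein, averaged 133 ± 9.62 in AD-like, 280 ± 90.1 in old and 285 ± 60.3 in young adult animals. Its log2 difference was −0.92 (SE 0.36, p = 0.0183, adjusted p = 0.936) for AD-like minus old and −0.98 (SE 0.38, p = 0.0167, adjusted p = 1.00) for AD-like minus young adult animals in limma. Among cofactors, 2 were higher and 7 lower for AD-like minus old, with a median of −0.18, and 6 were higher and 3 lower for old minus young adult, with a median of 0.09. Of all kept probe sets 48.3% and 53.7% were higher in these comparisons.

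In the opposite direction of decay, XRN1, the cytoplasmic nuclease that works from the 5′ end, averaged 207 ± 57.1 in AD-like, 383 ± 130 in old and 254 ± 74.2 in young adult animals. LSM2, a subunit of the LSm ring that binds decaying and spliceosomal RNA, averaged 275 ± 97.4, 461 ± 75.0 and 318 ± 97.7 in the same groups. Both had an unadjusted p under 0.05 for AD-like minus old (−0.79 and −0.74) and for old minus young adult (0.53 and 0.55), and neither passed after adjustment (adjusted p = 0.971 and 0.837 for both, limma). They were 2 of 11 kept genes of this list, beside 3.61% of all kept probe sets lower for AD-like minus old and 3.49% higher for old minus young adult at that threshold, and XRN1 was named after its values were seen. Of the 11 kept genes of this list 8 were lower for AD-like minus old, with a median of −0.26, and 10 were higher for old minus young adult, with a median of 0.26. Of all kept probe sets 48.3% were higher for AD-like minus old and 53.7% for old minus young adult. These comparisons share the old animals.

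The 12 kept deadenylases had medians of 0.04 and 0.10 for these comparisons and none had an unadjusted p under 0.05. Of 4 kept nonsense-mediated decay genes, SMG5, which helps degrade the marked mRNA, was at −0.75 (SE 0.35, adjusted p = 0.837) for old minus young adult and SMG9, which regulates the kinase of this pathway, at −1.19 (SE 0.51, adjusted p = 1.00) for AD-like minus young adult animals in limma. SMG9 averaged 126 ± 126 in AD-like and 251 ± 90.6 in young adult animals, so the 2 AD-like animals lay far apart. Of 10 kept genes for ribosomal RNA processing, IMP4, a small nucleolar ribonucleoprotein subunit, averaged 168 ± 68.5 in old and 93.3 ± 59.1 in young adult animals (log2 difference 0.80, SE 0.34, adjusted p = 0.837). Over the 46 genes the median was −0.08 for AD-like minus old, 0.13 for old minus young adult and 0.04 for AD-like minus young adult animals, beside −0.02, 0.03 and 0.02 over all kept probe sets.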

How the data were processed

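RNA from the temporal cortex of 18 animals was hybridized, 1 array per animal. The intensity values were made by the authors in GCOS 1.2 and deposited on a linear scale, each array having a trimmed mean of 100. Detection calls were not used here. Probe sets whose third-highest signal was at least 148 were kept, as many as the study's own detection filter left, and analysed as log2(signal + 16) with limma 3.58.1 in R 4.3.3, with all 3 groups in 1 fit, Benjamini-Hochberg adjustment over all kept probe sets and a threshold of 0.05. The scale of log2(signal + 16) understates changes of dim probe sets. Permutation tests used 100000 draws and were two-sided. The fit was tested on simulated data. Figures were drawn with matplotlib 3.10.9 in Python 3.11.15.

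Named genes are all members and the 2 genes with the smallest p over the decay lists in each comparison (HBS1L, LSM2, IMP4 and SMG9). XRN1, SMG5, MTREX and SKIC2 were named after their values were seen. The genes most like EXOSC9 and EXOSC5 were the 3 with the highest Pearson r. For each gene the brightest kept probe set entered medians and lists. Members and lists were chosen with earlier results of these data known. Groups came from the labels, and group ages from the study's description. Of the kept probe sets, 12717 had 1 symbol, 584 several and 1610 none. Sequences were not analysed here.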

Additional observations from a re-analysis of the deposited data

How the results depend on the processing

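In every one of 33 alternatives (offset, normalization, filter, variance model, array weights, sex, females only, poly-A control RNA, 3′ to 5′ ratio, replicate block, each animal left out and the t-test of the methods on linear signals), 0 tested members passed an adjusted p of 0.05. All but the t-test were limma fits, and their lowest adjusted p was 0.308, for EXOSC4 91684_g_at in AD-like minus old animals with the replicate block. The sign of a member's log2 difference turned in 16 of 260 values for AD-like minus old, 20 of 300 for old minus young adult and 13 of 220 for AD-like minus young adult animals, and the largest that turned was EXOSC7 212627_s_at at −0.57. EXOSC5 (AD-like minus old) and EXOSC9 (old minus young adult) kept their sign throughout, EXOSC9 falling to 0.47 in females only. Both were selected on these contrasts, so nothing is read from the kept signs. With both AD-like signals below every old one, the EXOSC5 sign could not turn with the offset or an animal left out. Animals with the same number in their labels are different animals, and nothing in the labels ties them. The deviations of 10 such pairs correlated between −0.27 and 0.47, 7 of them above 0.1 and 3 not, and in 7 of 20 cases an animal correlated best with its own number in another group. Since not every pair was above 0.1, the animals were treated as unpaired, and a shared factor behind some numbers was not tested. The counts of all kept probe sets with an unadjusted p under 0.05, 727, 883 and 647 for AD-like minus old, old minus young adult and AD-like minus young adult animals, were 3135, 2926 and 2690 with no filter, when all probe sets were tested. For AD-like minus old and AD-like minus young adult animals they were 1635 and 1222 with sex as a covariate, 1788 and 1241 in females only, and 2292 and 1890 with the replicate block, and the cause was not tested. Without AD-like F1 the first was 1139, and without young adult M1 the count for old minus young adult was 521. The t-test of the methods on linear signals called 0, 0 and 1 tested members unadjusted in the same order of comparisons, and 0 adjusted. Beside these it called 768, 904 and 538 of all kept probe sets unadjusted, and 0 adjusted. The member called was EXOSC3, for AD-like minus young adult animals. For old minus young adult animals EXOSC3 had an unadjusted p under 0.05 in limma but was not called by the t-test. Between AD-like and old or young adult animals only 2 animals carry the comparison, and signals near the array median limit DIS3, EXOSC10 and EXOSC2.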

Other observations

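EXOSC6, the ring partner of EXOSC7, is not among the 10 genes described, and none of its 3 probe sets was kept (highest signals of 50.6 to 94.4). The DIS3 relatives gave little more. DIS3L had 1 probe set, with a highest signal of 157 and a third-highest of 140, and DIS3L2 had 4, with highest signals of 80.5 to 118, so none passed the filter and none was compared between groups.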
